A study of Mus musculus with 4 samples.

Results

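The genes described here are 10 transcriptional regulators of early T-lineage and lymphoid development (Tcf7, Gata3, Bcl11b, Runx1, Spi1, Id2, Zbtb16, Lmo2, Bcl11a, and Myb) out of 27998 genes in single-cell RNA sequencing matrices of fetal mouse thymus. They were chosen by name, with earlier results of these data known, and no threshold on a measured value was used. Each was measured in 4 subsets of hematopoietic cells, and each cell was required to carry at least 1 UMI (unique molecular identifier, a tag that marks a captured transcript) of Ptprc, the gene of the leukocyte antigen CD45. A Ptprc-positive cell was called C1qa-positive with at least 10 C1qa UMIs, otherwise Klrd1-positive, then Rag1-positive, then Kit/Adgrg1-positive with at least 1 UMI of the named marker, in that order, so that no cell was counted in more than 1 subset.

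Thymuses were taken at embryonic day (E) 13 to 13.5 from embryos whose mothers had been injected at E8, E9, and E10. Tbx1+/+ embryos carry the wild-type T-box transcription factor Tbx1. Tbx1neo2/neo2 embryos carry a neomycin cassette in an intron of both Tbx1 alleles, retain part of the wild-type transcript, and develop a small thymus. The 4 libraries were Tbx1+/+ with carrier (5% ethanol), Tbx1neo2/neo2 with carrier, Tbx1neo2/neo2 with minoxidil (200 µl at 0.55 mg/ml), and Tbx1neo2/neo2 with prostaglandin E2 (PGE2, 90 µl at 3.6 ng/µl). The allele acts in the whole embryo, the drugs reached it through the mother, and how many embryos entered each library is not given in the sources used here. There was 1 library per condition, so differences between libraries have no replicate check and no p-value is given. Values for the libraries are listed in the order Tbx1+/+ carrier, Tbx1neo2/neo2 carrier, minoxidil, and PGE2 unless a library is named.

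Blood-borne progenitors that settle the fetal thymus receive Notch signals from its epithelium and lose access to other fates step by step. Tcf7 and Gata3 act early in this sequence, Bcl11b marks T-lineage commitment, and Runx1 and Myb work throughout. Spi1 (PU.1), Lmo2, and Bcl11a belong to the progenitor program that is switched off during commitment, whereas Id2 and Zbtb16 (PLZF) mark innate lymphoid cells, which also arise in the fetal thymus. Macrophages depend on Spi1 and have no T-lineage program.

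The sequences around the starts of these genes were read from a set of RefSeq start sites (GRCm38.p6). It held 7 of the 10 genes, with 9 start sites in all. Spi1, Zbtb16, and Lmo2 were missing from the set used here, so their starts were not searched. The 250 bases before each start were searched on both strands for 5 motifs, with the share of all 32851 such windows that held each. A GATA motif was read as AGATAA and was held by 9.99% of windows. For TCF/LEF factors the letters were CTTTGA, held by 13.8%. The RUNX letters, TGTGGT, were held by 14%. For PU.1 the search used GAGGAAGT, held by 2.44%. An E-box was read as CAGGTG and was held by 17.2%. Only 2 of the 9 windows held any: that of Bcl11b, the only one of the 10 genes higher in Rag1-positive than in Kit/Adgrg1-positive cells of all 4 libraries by the rule below, and the first of the 2 Runx1 windows. Both are shown as 30 bases with the matched letters in capitals, and the window of Myb, which held no match and no annotated exon, is shown whole as the most GC-rich of the 9.
Bcl11b, chr12:108003486-108003515, minus strand: agaggccaagcaCTTTGAagaagtgtgaga
Runx1, chr16:92826193-92826222, minus strand: cctgggggagggCAGGTGgagggcaggaag
Myb, chr10:21160985-21161234, minus strand: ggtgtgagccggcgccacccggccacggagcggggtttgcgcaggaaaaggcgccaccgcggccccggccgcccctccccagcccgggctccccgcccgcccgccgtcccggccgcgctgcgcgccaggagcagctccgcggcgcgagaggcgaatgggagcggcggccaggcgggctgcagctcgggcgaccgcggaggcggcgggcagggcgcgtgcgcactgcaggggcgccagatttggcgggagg

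The TCF/LEF letters lay 89 bases before the RefSeq start of Bcl11b, inside its GENCODE first exon (gene at chr12:107910403-108003602). The E-box letters lay 136 bases before the distal Runx1 start and outside any annotated exon. The Bcl11b window was 44.8% GC, below the median of 52.4% over all windows, and that of Myb was 81.2% GC. A match of this length is a description of the letters and not a binding site.

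The 4 libraries held 11908, 11364, 3362, and 4471 barcodes. Of the cells kept (at least 200 genes, at most 10% mitochondrial UMIs), 3049, 1055, 732, and 1216 were Ptprc-positive, with medians of 33196, 30769, 64724, and 48041 UMIs. Pairs of libraries shared 4 to 35 barcodes and at most 2 Ptprc-positive ones. In the Tbx1+/+ library 10.8% of Ptprc-positive cells carried at least 10 UMIs of the parathyroid hormone gene Pth, against none elsewhere; leaving those cells out changed the calls below by at most 1 per comparison.

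The subsets differed in size between libraries. Kit/Adgrg1-positive cells, which carry the stem cell factor receptor or an adhesion receptor of early progenitors, were 44.7%, 35.8%, 30.5%, and 22.4% of Ptprc-positive cells (1364, 378, 223, and 272 cells). Rag1-positive cells, in which the antigen receptor recombinase is on, were 31.4%, 37.6%, 54.5%, and 65% (958, 397, 399, and 790 cells). These shares rest on 1 UMI and move with depth: with the markers read after thinning to 5000 UMIs, Kit/Adgrg1-positive cells were 49.6%, 37.6%, 46%, and 30.4% and Rag1-positive cells 11.3%, 19.5%, 20.6%, and 41.2%, so that minoxidil lay above the Tbx1neo2/neo2 carrier library for the first and near it for the second. Nearly all Rag1-positive cells, 96.7% to 100%, also carried a UMI of Kit or Adgrg1. Kit itself was found in 1087 of 1364, 340 of 378, 207 of 223, and 252 of 272 Kit/Adgrg1-positive cells and in 798 of 958, 284 of 397, 378 of 399, and 580 of 790 Rag1-positive cells.

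Klrd1-positive cells (Klrd1 encodes the NK receptor CD94) numbered 238, 62, 42, and 69, or 5.67% to 7.81% of Ptprc-positive cells. C1qa-positive cells, which carry a complement gene of macrophages, numbered 113, 128, 31, and 28, with the highest share, 12.1%, in the Tbx1neo2/neo2 carrier library. The subsets were checked against marker genes. The T-lineage list of 10 genes (Cd3g, Cd3e, Rag2, Ptcra, and others) summed to 1293 to 2923 UMIs per 1000000 UMIs (CPM) in Rag1-positive cells and to 408 to 636 CPM in Kit/Adgrg1-positive cells, with all 10 genes present in both. The progenitor list of 6 genes, which includes Kit and Adgrg1, separated these 2 subsets only weakly. It summed to 458, 366, 413, and 373 CPM in Kit/Adgrg1-positive and to 384, 246, 379, and 237 CPM in Rag1-positive cells. The macrophage list of 7 genes summed to 5242 to 8523 CPM in C1qa-positive cells and to at most 86.3 CPM in the other subsets. Kit/Adgrg1-positive cells also held genes of other lineages. Mast cell genes (4 genes, Cpa3 and others) summed to 139, 417, 194, and 249 CPM there, against 129, 119.9, 143, and 132 CPM in Rag1-positive cells. Granulocyte genes (6 genes, S100a8 and others) summed to 275, 41.3, 637, and 63.4 CPM, against 26.1, 10.6, 21.5, and 9.6 CPM. The part of both lists in the values of the Kit/Adgrg1-positive subset was not tested.

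The innate lymphoid list, by contrast, did not set the Klrd1-positive cells apart: it summed to 2805 to 3895 CPM there and to 4256 to 4979 CPM in Rag1-positive cells, with Gzma alone at 3601 to 4357 CPM in the latter. Tbx21, a regulator of NK cells, did separate them, with 11.8, 12.6, 13.8, and 16.8 CPM in Klrd1-positive cells and at most 0.0946 CPM in Rag1-positive cells.

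A level is the summed UMIs of a gene per 1000000 UMIs of the subset, with an exact Poisson 95% interval. A gene was called between 2 sums where they differed at least 1.5-fold with intervals apart and at least 20 UMIs in both together. Intervals cover counting error only and say nothing of variation between embryos. Shares of cells with a UMI were taken after thinning each cell to 5000 UMIs, with exact binomial intervals, since the libraries differ in depth. Levels are compared between cells for each gene and not between genes.

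**Figure D1:**
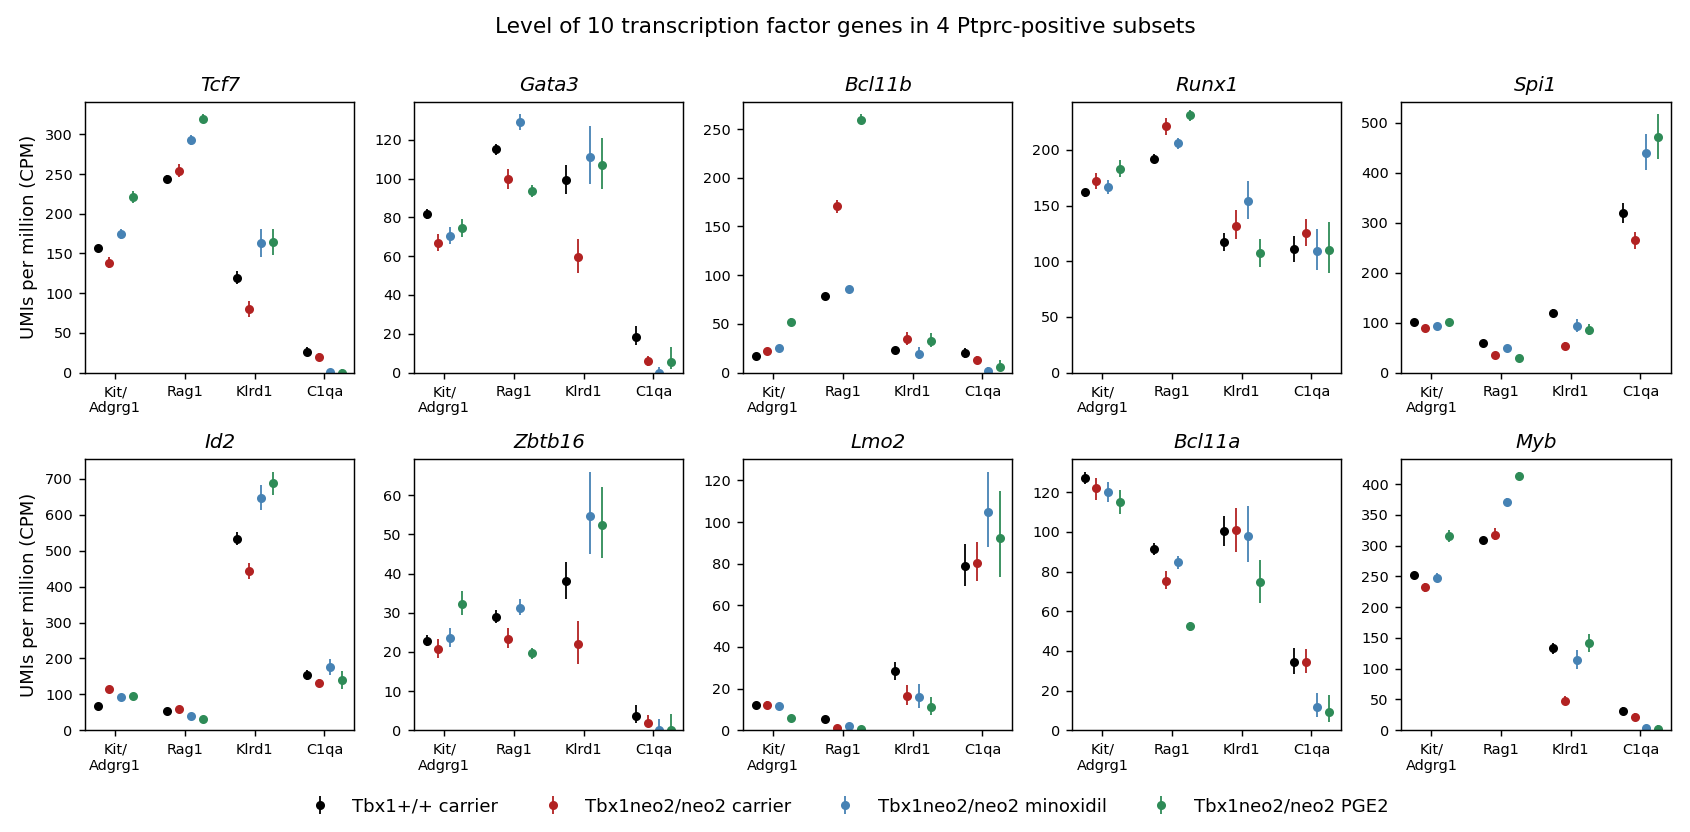
Level of each of the 10 genes in CPM (y axis, linear, from 0, its own scale in each panel) in the 4 Ptprc-positive subsets (x axis); points are the 4 libraries, 1 per condition, and bars are exact Poisson 95% intervals. Bcl11b reaches 259.6 CPM in Rag1-positive cells of the PGE2 library, Id2 stands highest in Klrd1-positive cells at 443 to 688 CPM, and Spi1 and Lmo2 stand highest in C1qa-positive cells.

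Within every library, Rag1-positive cells held more Bcl11b and less Spi1 and Lmo2 than Kit/Adgrg1-positive cells. These 3 of the 10 genes were called in the same direction in all 4 libraries, against 3.07% of 12492 genes measured in all of them (205 higher and 178 lower). In single libraries 4, 6, 6, and 6 of the 10 were called, against 5.72%, 8.95%, 17.2%, and 15.7% of all genes.

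Bcl11b, a zinc finger protein needed to leave the progenitor state for good, stood at 16.5, 21.7, 25.3, and 52.3 CPM in Kit/Adgrg1-positive cells. In Rag1-positive cells it stood at 79 (76.3 to 81.7), 171 (164 to 177), 85.4 (82 to 88.8), and 259.6 (255 to 265) CPM. The difference was 4.8-, 7.87-, 3.37-, and 4.96-fold, and the intervals of the 2 subsets lay far apart in each library.

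Detection gave the same order: after thinning, 27.6%, 50.1%, 28.1%, and 63.2% of Rag1-positive cells held a Bcl11b UMI (56.6%, 80.9%, 65.7%, and 92.3% without thinning), against 6.51%, 8.78%, 8.52%, and 16.5% of Kit/Adgrg1-positive cells. Among cells without Ptprc UMIs, 13.8% to 15% of those with at least 2 Epcam UMIs (epithelial, median depth 24760 to 53596 UMIs) and at most 3.16% of those with at least 2 Cdh5 UMIs (endothelial) held a Bcl11b UMI. Mesenchymal cells, those with at least 2 Pdgfra UMIs, gave 1.87%, 10.9%, 0.942%, and 0.66%. The share in Kit/Adgrg1-positive cells of the first 3 libraries was thus below that of epithelial cells. It was above that of mesenchymal cells in every library but the Tbx1neo2/neo2 carrier. The share in Rag1-positive cells was above all of these. Cd3g was found in only 6.33%, 0.82%, 0.891%, and 1.29% of the epithelial cells, and the source of their Bcl11b UMIs was not tested.

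Spi1, a regulator of myeloid and early progenitor genes, went the other way. It stood at 100.4, 89.6, 94, and 101 CPM in Kit/Adgrg1-positive cells, a spread of less than 1.5-fold, and at 59.1, 34.4, 48.9, and 28.7 CPM in Rag1-positive cells. Rag1-positive cells held 1.7-, 2.6-, 1.92-, and 3.54-fold less, and the 2 libraries with the most Bcl11b in Rag1-positive cells were also the 2 with the least Spi1. After thinning, 23.4%, 14.9%, 22.3%, and 10.9% of Rag1-positive cells held a Spi1 UMI, against at most 2.77% of epithelial cells.

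Lmo2, an adaptor protein of stem and progenitor cells, was scarce in Kit/Adgrg1-positive cells, at 12.2, 11.9, 11.4, and 5.72 CPM, and scarcer in Rag1-positive cells, at 5.22, 1.03, 1.89, and 0.673 CPM from 221, 15, 55, and 27 UMIs. The difference was 2.34-, 11.6-, 5.99-, and 8.49-fold, but the Rag1-positive levels of the Tbx1neo2/neo2 libraries lay under the 3.2, 3.96, and 2.17 CPM of their epithelial cells and are read as background. Endothelial cells held 170.4 to 261 CPM of Lmo2, and Cdh5, the endothelial cadherin gene, stood at 12.7, 10, 10.7, and 1.74 CPM in Kit/Adgrg1-positive cells; its part in the Lmo2 level was not tested.

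**Figure D2:**
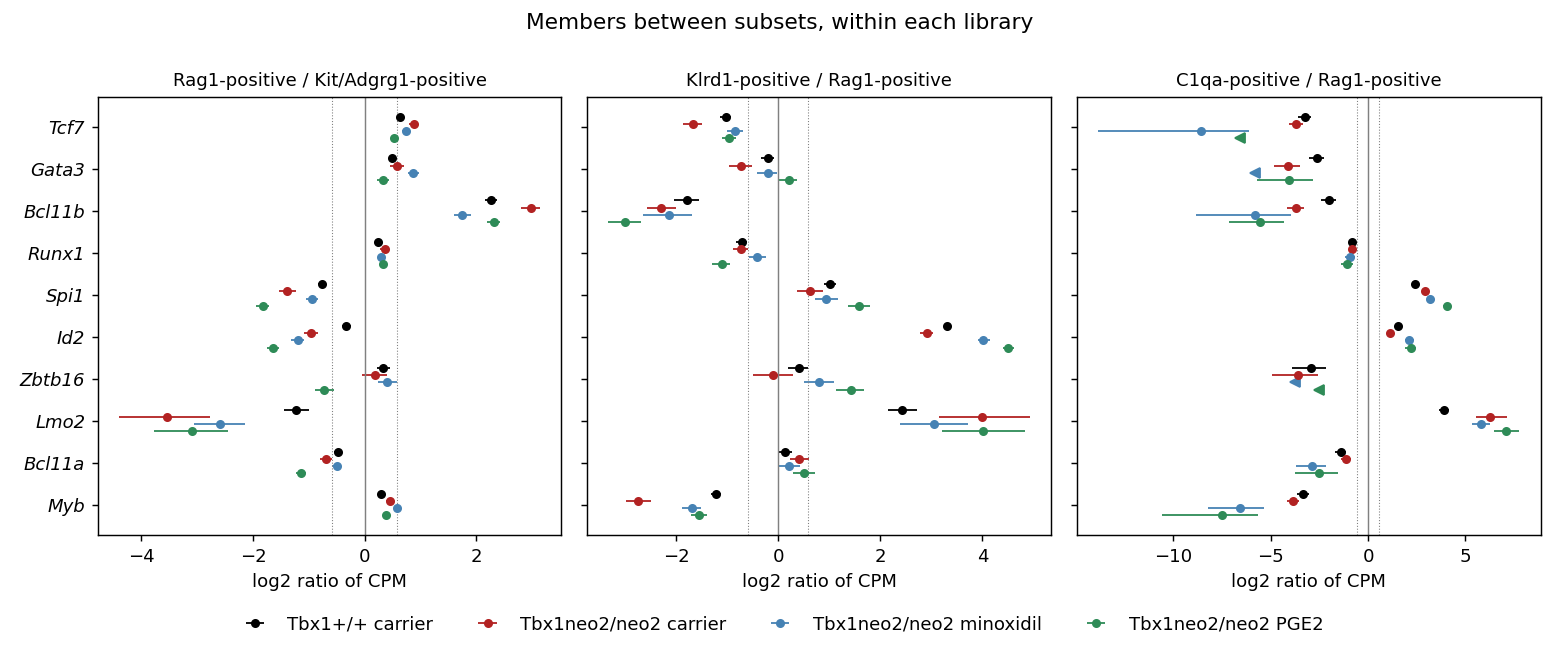
Log2 ratio of CPM between subsets within each library (x axis, its own scale in each panel) for the 10 genes (y axis), with points and 95% counting intervals coloured by library, triangles for bounds against a floor of 3 UMIs, and dotted lines at 1.5-fold. Bcl11b lies right of the lines and Spi1 and Lmo2 left of them in every library for Rag1-positive against Kit/Adgrg1-positive cells, and all 10 genes lie outside the lines for C1qa-positive against Rag1-positive cells.

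The earlier T-lineage factors differed less. Tcf7 (TCF-1), the first target of Notch in this lineage, was at 157, 138, 175, and 221 CPM in Kit/Adgrg1-positive and at 244, 254, 293, and 319.5 CPM in Rag1-positive cells. Its log2 ratio was 0.64, 0.88, 0.75, and 0.53, past 1.5-fold in all but the PGE2 library, where the Kit/Adgrg1-positive level was highest. After thinning, 42.3%, 42.3%, 46.2%, and 56.6% of Kit/Adgrg1-positive cells already held a Tcf7 UMI, against 2.76% to 5.76% of epithelial cells.

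Gata3, which is required alongside Tcf7, was at 66.8 to 81.7 CPM in Kit/Adgrg1-positive and at 115, 99.9, 129, and 93.5 CPM in Rag1-positive cells. It was called higher only in the minoxidil library (log2 0.87, 95% interval 0.77 to 0.97); in the others the ratios were 0.49, 0.58, and 0.33. Runx1 (162 to 183 against 192 to 231 CPM) and Myb (232 to 315 against 309 to 413 CPM), both used from the stem cell stage on, passed 1.5-fold in no library.

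Genes of the alternative fates split further by library. Id2, the inhibitor of E proteins that marks innate lymphoid cells, was lower in Rag1-positive cells at 53.8, 59, 39.8, and 30.2 CPM than in Kit/Adgrg1-positive cells at 67.4, 114, 91.2, and 94 CPM. The log2 ratio was -0.33 in the Tbx1+/+ library, under the threshold, and -0.95, -1.19, and -1.64 in the Tbx1neo2/neo2 libraries. Non-hematopoietic cells held 87.9 to 256 CPM of Id2, so these levels lie within or below the range of the stroma.

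Bcl11a, a paralog of Bcl11b used by progenitors and B cells, was 127, 122, 120.0, and 115 CPM in Kit/Adgrg1-positive and 91.3, 75.5, 84.7, and 52.4 CPM in Rag1-positive cells. It was called lower in the Tbx1neo2/neo2 carrier and PGE2 libraries, by 1.61- and 2.19-fold. Epithelial cells held 109 to 130.2 CPM of it. Zbtb16 was called only in the PGE2 library, where Rag1-positive cells held less (19.6 against 32.3 CPM, log2 -0.72).

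The other regulators on 4 lists gave counts of the same kind. Of 12 further T-lineage regulators, 3 were called higher in Rag1-positive than in Kit/Adgrg1-positive cells in all 4 libraries and none lower. They were the receptor Notch1 (159, 192, 174, and 250.2 against 103, 94.7, 112, and 121 CPM), Lef1 (51.6, 76.4, 68.5, and 166 against 9.72, 11.4, 10.7, and 15.1 CPM), and the repressor Gfi1. Of 10 progenitor regulators, 4 were called lower, with Mef2c at 35.3, 28, 16.4, and 13.7 against 90, 89.4, 86.6, and 81 CPM and Hlf, Mycn, and Hoxa9 below 40 CPM throughout. Of 10 innate lymphoid and 8 myeloid regulators, 1 (Rora) and 2 (Irf8 and Batf3) were called lower. Over all genes the shares were 1.64% for higher and 1.42% for lower.

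Rag1-positive cells were not uniform, and other T-lineage genes differed between the libraries alongside Bcl11b. Cd3g, a component of the T cell receptor complex, stood at 683, 996, 806, and 1442 CPM in these cells. The T-lineage marker list summed to 1293, 1868, 1587, and 2923 CPM. The cells were therefore split, by limits chosen after seeing the data, into cells with Cd3g under 200, from 200 to 1000, and at 1000 CPM and over (379, 82, 96, and 82 cells; 297, 136, 156, and 168; 282, 179, 147, and 540). The top stratum held 29.4%, 45.1%, 36.8%, and 68.4% of the Rag1-positive cells.

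Bcl11b was higher with more Cd3g in every library. It was 22.8, 56.5, 21, and 51.4 CPM in the lowest stratum. It was 91.4, 148, 89.3, and 221 CPM in the middle stratum. At 1000 CPM of Cd3g and over it was 147 (141 to 154), 257 (245 to 270.4), 129 (122 to 136), and 313 (307 to 320.2) CPM. The Tbx1neo2/neo2 carrier and PGE2 libraries lay above the other 2 in each stratum, with no overlap of intervals between these pairs.

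Spi1 was lower along the same axis, from 87.3, 63.2, 85.8, and 83.1 CPM to 45.5, 34.4, 40.5, and 32.8 and then to 33.1, 17.3, 30.8, and 16.6 CPM. Bcl11a was 116 to 123 CPM in the lowest and 34.3 to 63 CPM in the highest stratum. Tcf7 was 186 to 277 CPM in the lowest and 288 to 329.5 CPM in the highest, whereas Myb, at 290.3 to 427 CPM over all strata and libraries, and Runx1, at 183 to 238 CPM, had no such order. These differences between strata were not tested. Gata3 was higher with more Cd3g in the minoxidil library (117, 129, and 138 CPM) and lower in the PGE2 library (122, 110.0, and 82.4 CPM).

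**Figure D3:**
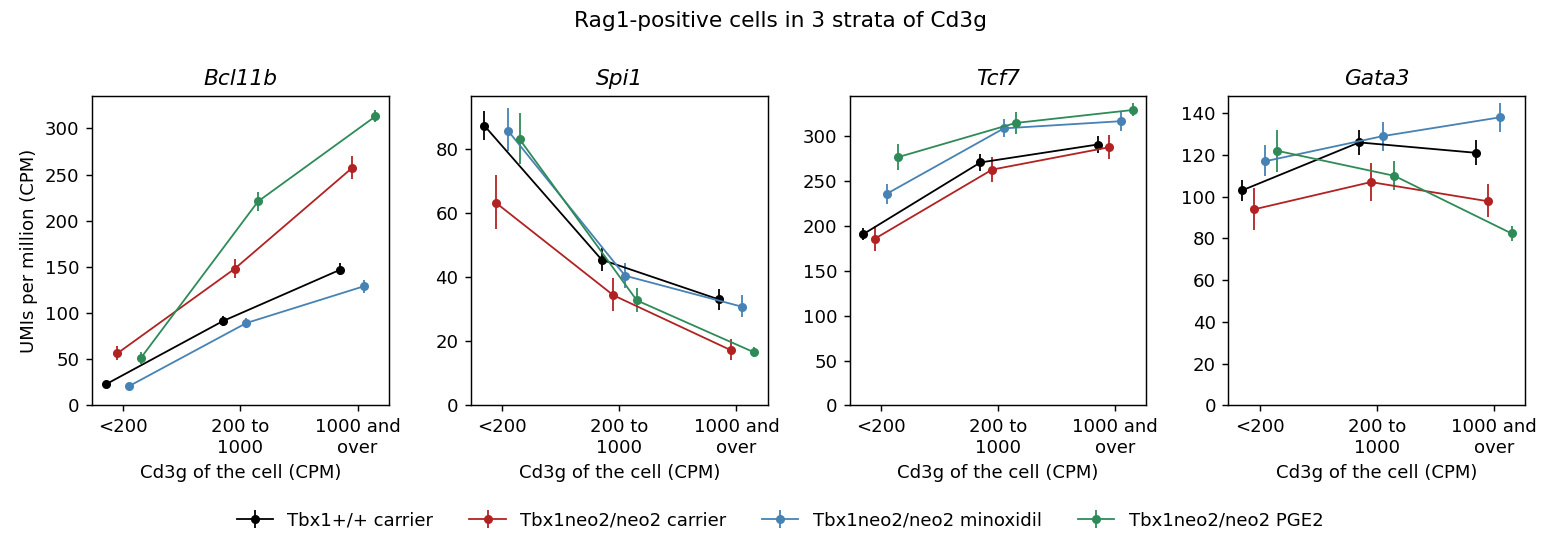
Level in CPM (y axis, linear, from 0, its own scale in each panel) of Bcl11b, Spi1, Tcf7, and Gata3 in Rag1-positive cells of 3 strata by the Cd3g level of the cell (x axis); points are libraries with exact Poisson 95% intervals, and lines join the strata of a library. Bcl11b lies at 21 to 56.5 CPM in the lowest stratum and at 129 to 313 CPM in the highest, and Spi1 at 63.2 to 87.3 and at 16.6 to 33.1 CPM.

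Bcl11b also differed with Kit and with the amount of Rag1. Cells without a Kit UMI (160, 113, 21, and 210 cells) held 112, 198, 175, and 349 CPM, against 74.3, 161, 81.1, and 233 CPM in cells with one. Cells with at least 3 Rag1 UMIs held 123, 228, 108, and 298 CPM, against 36.9, 77.7, 30.4, and 73 CPM with 1 Rag1 UMI. The median depth of the latter strata was 33823 to 69459 and 33583 to 70710.5 UMIs.

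Spi1 was lower in Rag1-positive cells with more Bcl11b. Cells with at least 2 Bcl11b UMIs held 35.3, 20.5, 29.5, and 21.3 CPM of Spi1, and cells with none held 90.8, 81.6, 76.5, and 88.6 CPM. After thinning, 2.95%, 4.3%, 3.51%, and 4.82% of Rag1-positive cells held a UMI of both genes. Bcl11a showed the same split, with 72.5, 66.7, 63.8, and 43.6 CPM in cells with at least 2 Bcl11b UMIs and 114 to 119 CPM in cells with none. Tcf7 (276, 258, 329, and 327 against 204, 238, 239, and 246 CPM), Runx1, Myb, and Gata3 differed by less than 1.5-fold.

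The next question was whether the Tbx1neo2/neo2 genotype changed these genes. In Rag1-positive cells, 3 of the 10 were called between the 2 carrier libraries, against 13.1% of 13992 genes. Bcl11b was 2.16-fold higher in the Tbx1neo2/neo2 library (171 against 79 CPM, log2 1.11, interval 1.04 to 1.19). Spi1 was 1.72-fold lower (34.4 against 59.1 CPM) and Lmo2 5.07-fold lower (1.03 against 5.22 CPM, the former under the epithelial level of its library). The other 7 lay within 1.25-fold of each other.

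The Bcl11b difference was present within each Cd3g stratum, with log2 ratios of 1.31, 0.70, and 0.80 from low to high Cd3g, all called (12.4%, 10.5%, and 5.73% of all genes were called in these strata). The call was lost under no other setting of the analysis that was run, with log2 ratios from 0.92 to 2.77. Spi1 was called only in the highest stratum (log2 -0.94), with -0.47 and -0.40 in the others. Id2, not called over all Rag1-positive cells, was called higher in the lowest stratum (log2 0.75), with -0.09 and -0.13 in the others. Cells with at least 2 UMIs of the stromal genes Psmb11, Pdgfra, or Cdh5 were 12.8% and 12.1% of Rag1-positive cells in the 2 libraries, and without them Bcl11b stood at 81.3 and 195 CPM. Mesenchymal cells without Ptprc held 25.9 CPM of Bcl11b in the Tbx1neo2/neo2 carrier library and 2.04 to 6.79 CPM in the others, well under the level in Rag1-positive cells.

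Among the listed regulators in Rag1-positive cells of the carrier libraries, 5 of 10 progenitor factors (Lyl1, Erg, Mycn, Tal1, and Gfi1b) were called lower in the Tbx1neo2/neo2 library and 1 (Hoxa9) higher, against 5.36% and 7.7% of all genes. Mycn, for example, was 10.9 against 16.4 CPM. Of 12 T-lineage regulators only Hhex was called, and lower. Innate lymphoid and myeloid factors each gave 1 call in each direction (Rora and Maf higher, Gata2 and Klf4 lower). Hoxa9 was also called higher in Klrd1-positive and C1qa-positive cells of the Tbx1neo2/neo2 carrier library, and lower with both drugs in every subset. Mesenchymal genes (3 genes) summed to 149, 575, 108, and 60.1 CPM in Rag1-positive cells of the libraries. Their part in the Hoxa9 calls was not tested.

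Kit/Adgrg1-positive cells of the carrier libraries differed in 1 of the 10 genes, Id2, at 114 against 67.4 CPM (log2 0.76), against 12.6% of 14316 genes. The median log2 ratio was -0.10 for the 10 genes and -0.00 for all genes. Bcl11b was not called there (21.7 against 16.5 CPM, log2 0.40). Mesenchymal genes (3 genes) summed to 693 CPM in these cells of the Tbx1neo2/neo2 library and to 154 CPM in the Tbx1+/+ library, and mesenchymal cells with at least 2 Pdgfra UMIs held 161 to 256 CPM of Id2; Id2 was 92.8 against 59.3 CPM without the cells that carried stromal UMIs and was still called.

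Minoxidil was then compared with carrier in Tbx1neo2/neo2 embryos. Rag1-positive cells differed in 1 of the 10 genes, Bcl11b, against 15.6% of 13263 genes. It was 85.4 CPM with minoxidil and 171 CPM with carrier, a 2-fold difference (log2 -1.0, interval -1.08 to -0.92). The call held within each Cd3g stratum at log2 ratios of -1.43, -0.73, and -1.0 (16.3%, 13.2%, and 6.08% of all genes called) and stood at -1.17 without the cells with stromal UMIs. The minoxidil level was near the 79 CPM of the Tbx1+/+ carrier library, although the intervals of the 2 did not overlap (82 to 88.8 against 76.3 to 81.7 CPM).

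Spi1 in these cells was 48.9 CPM with minoxidil and 34.4 CPM with carrier, a log2 ratio of 0.51 that was not called, although in the highest Cd3g stratum it was (30.8 against 17.3 CPM, log2 0.83). Id2 was likewise not called overall (39.8 against 59 CPM) but was called lower in the lowest and middle strata (log2 -1.25 and -0.61), with -0.00 in the highest. None of the 10 genes was called in Kit/Adgrg1-positive cells, against 12.7% of 13359 genes, and their largest log2 ratio there was 0.34, for Tcf7. Among the listed regulators in Rag1-positive cells, 1 of 12 T-lineage factors (Hhex) was called higher with minoxidil, and the progenitor factors split into 2 higher (Lyl1 and Gfi1b) and 2 lower (Mef2c and Hoxa9), against 3.16% higher and 12.4% lower of all genes.

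PGE2 was compared with the same carrier library, which both drug comparisons share. In Rag1-positive cells 2 of the 10 genes were called, against 17.5% of 13493 genes: Bcl11b higher at 259.6 against 171 CPM (1.52-fold) and Id2 lower at 30.2 against 59 CPM (log2 -0.97). The Bcl11b difference sat just past the threshold and was not called within any Cd3g stratum, where the log2 ratios were -0.14, 0.57, and 0.28 (15.1%, 12.1%, and 8.07% of all genes called). Id2 was called lower in the lowest and middle strata (log2 -2.84 and -1.13) and not in the highest (-0.28). Without the cells that carried stromal UMIs neither gene was called. Of the listed regulators, Lef1 (166 against 76.4 CPM) and Ets1 were called higher among 12 T-lineage factors, and 4 of 10 progenitor factors (Mef2c, Meis1, Hlf, and Hoxa9) were called lower and Lyl1 higher, against 2.74% higher and 14.8% lower of all genes.

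Kit/Adgrg1-positive cells after PGE2 held more Bcl11b (52.3 against 21.7 CPM, 2.41-fold), Tcf7 (221 against 138 CPM), and Zbtb16 (32.3 against 20.7 CPM) and less Lmo2 (5.72 against 11.9 CPM), 4 of the 10 genes against 16.5% of 13025. The Bcl11b call was lost under no other setting that was run (log2 0.68 to 1.54), and its share of cells was 16.5% (12.3 to 21.5) against 8.78% (6.12 to 12.1) after thinning, the latter under the 14.5% of epithelial and the 10.9% of mesenchymal cells in the carrier library. Cd3g in these cells was 222 against 157 CPM. Tcf7 and Zbtb16 were no longer called without the cells with stromal UMIs, at 234 against 168 and 34 against 25.7 CPM.

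Klrd1-positive cells held a different set of factors. Compared with Rag1-positive cells of the same library, 6 of the 10 genes were called in the same direction in all 4 libraries, against 5.68% of 11804 genes. Id2, Spi1, and Lmo2 were higher and Tcf7, Bcl11b, and Myb were lower, next to 3.88% and 1.8% of all genes. In single libraries 7, 8, 7, and 8 were called, against 17.4%, 28.8%, 14.9%, and 20.9% of all genes.

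Id2 stood at 534, 443, 648, and 688 CPM in Klrd1-positive cells, 9.93-, 7.51-, 16.3-, and 22.8-fold above Rag1-positive cells and above the 87.9 to 256 CPM of stromal cells. After thinning, 67.4%, 85.5%, 69%, and 78.3% of Klrd1-positive cells held an Id2 UMI. Lmo2 was 28.2, 16.4, 15.8, and 10.9 CPM, and Spi1 119, 52.9, 93.7, and 85.6 CPM. Bcl11b was 22.8, 34.8, 19.2, and 32.4 CPM, 3.46- to 8-fold below the Rag1-positive level, with 2.38% to 11.3% of cells positive after thinning, under the 13.8% to 15% of epithelial cells.

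Tcf7 and Gata3 were also present in Klrd1-positive cells. Tcf7 was 119, 79.6, 163, and 164 CPM, 1.8- to 3.19-fold below Rag1-positive cells but above the 5.13 to 10.2 CPM of epithelial cells. Gata3, at 99.3, 59.6, 111, and 107 CPM, was called lower only in the Tbx1neo2/neo2 carrier library. Zbtb16 was 38, 21.9, 54.7, and 52.4 CPM and was called higher only with minoxidil and PGE2 (log2 0.80 and 1.42), against at most 0.517 CPM in epithelial cells.

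Levels also differed with the amount of Klrd1 in the cell, a split added after seeing the data and not tested. From cells with 1 or 2 Klrd1 UMIs to cells with 3 or more, Id2 went from 288, 225, 136, and 174 to 801, 732, 1179, and 957 CPM. Zbtb16 went from 20, 9.05, 17.4, and 14.8 to 57.5, 39, 93.4, and 72.1 CPM. Myb went the other way, from 194, 66.2, 206, and 338 to 66.3, 23.2, 19.1, and 37.5 CPM. Bcl11a went from 111 to 184 CPM to 17.3 to 87 CPM, and Tcf7 had no common direction. Cells with more Klrd1 thus held more of the innate lymphoid pair Id2 and Zbtb16 and less Myb and Bcl11a in each library. Their median depth was 24908, 20766, 35470, and 32795 UMIs, against 16564, 93294, 52985, and 41730.5 UMIs in cells with 1 or 2.

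Among the further regulators, 4 innate lymphoid factors (Tbx21, Rora, Tox2, and Id3) and 4 myeloid factors (Cebpb, Irf8, Maf, and Batf3) were called higher in Klrd1-positive than in Rag1-positive cells in all 4 libraries, and none of either list lower. Rora, which is needed by type 2 innate lymphoid cells, was 64, 37.7, 141, and 122 CPM against 2.55, 4.19, 2.79, and 1.22 CPM. Batf3, known from dendritic cells, was 44.7, 26.4, 38.4, and 36.7 CPM against at most 1.68 CPM. Notch1, Hes1, and Lef1 were lower and Ets1 and Tox higher among the T-lineage regulators, and Mef2c was higher and Lyl1 lower among the progenitor regulators.

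Between libraries, the Klrd1-positive cells gave many calls that did not hold when cells with stromal transcripts were left out. Their number was small, and in the Tbx1neo2/neo2 carrier library 20 of 62 cells carried at least 2 UMIs of Psmb11 (thymic epithelium), Pdgfra (mesenchyme), or Cdh5 (endothelium). These 20 cells held 66.5% of the summed UMIs, with a median of 108934 UMIs against 28858 over all 62. In the other libraries such cells held 24%, 10.3%, and 7.67% of the UMIs. The mesenchymal genes summed to 1695 CPM in this library and to 209 to 249 CPM in the other 3.

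With all cells, 6 of the 10 genes were called between the carrier libraries (21.6% of 11983 genes), 6 between minoxidil and carrier (26.8% of 10776), and 6 between PGE2 and carrier (29.6% of 10851). Without those cells the counts were 2, 3, and 1, and the shares over all genes fell as well, to 5.82% of 10379, 6.16% of 8339, and 5.96% of 8545 genes. Myb was called in all 3 comparisons both ways: it was 133 CPM in the Tbx1+/+ library and 47.7, 114, and 141 CPM in the Tbx1neo2/neo2 libraries with all cells, and 149.7, 65.5, 126, and 139 CPM without them. Bcl11b remained higher in the Tbx1neo2/neo2 carrier than in the Tbx1+/+ library (49.2 against 21.4 CPM) and lower with minoxidil (21.4 CPM).

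The calls of Tcf7, Gata3, Spi1, Zbtb16, Lmo2, and Id2 did not remain, and Runx1 was called higher with minoxidil only without those cells. Tcf7, for example, was 79.6 CPM with all cells of the Tbx1neo2/neo2 carrier library and 153 CPM without the 20, next to 125 CPM in the Tbx1+/+ library. The Myb difference also depended on the amount of Klrd1: at 3 or more Klrd1 UMIs the log2 ratio of minoxidil to carrier was -0.29 in place of 1.26.

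**Figure D4:**
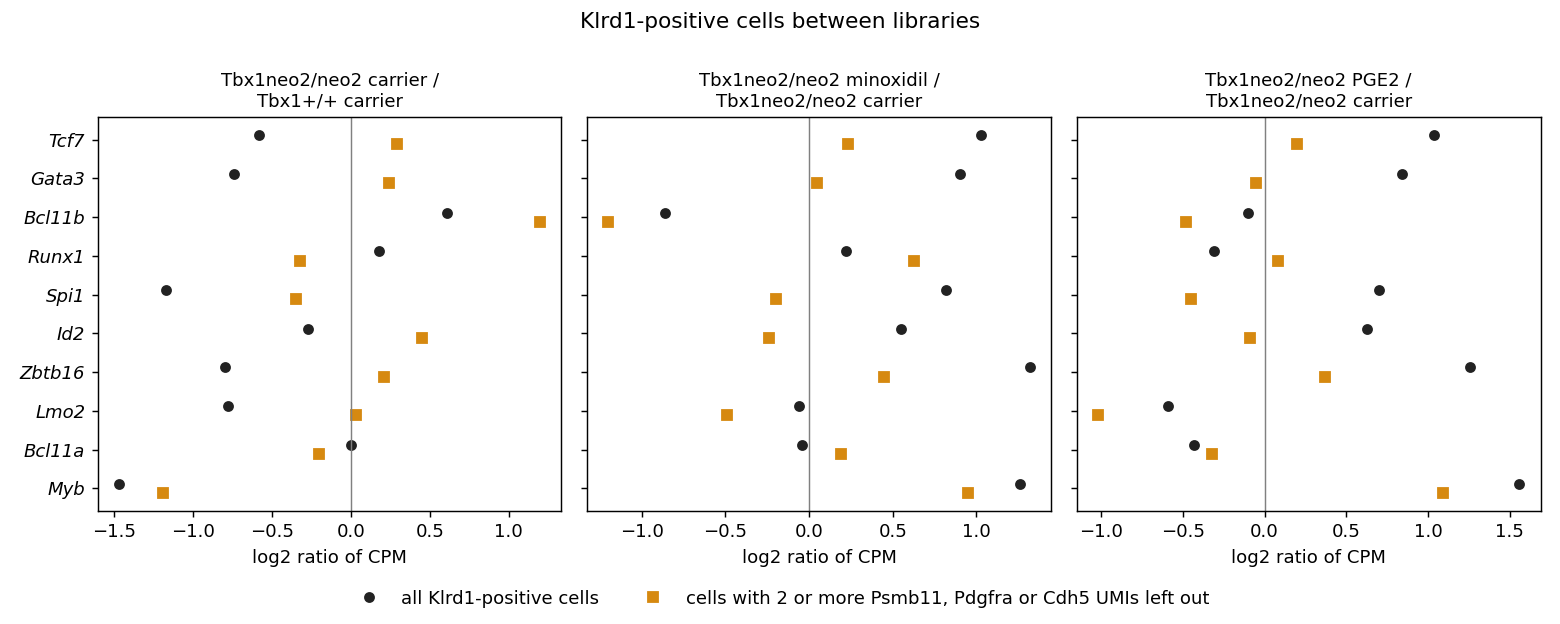
Log2 ratio of CPM between libraries in Klrd1-positive cells (x axis, its own scale in each panel) for the 10 genes (y axis), with all cells (black circles) and without cells holding at least 2 Psmb11, Pdgfra, or Cdh5 UMIs (orange squares); no intervals are drawn. Myb keeps its side of 0 in all 3 comparisons, whereas Tcf7, Gata3, Runx1, Id2, Zbtb16, and Lmo2 cross 0 in the comparison of the carrier libraries.

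C1qa-positive cells held less of the T-lineage factors than Rag1-positive cells and more Spi1. All 10 genes were called against Rag1-positive cells in the same direction in every library, against 22.3% of 11926 genes (35.5%, 38.6%, 40.6%, and 37.9% in single libraries). Spi1, Id2, and Lmo2 were higher and the other 7 lower, next to 13.2% and 9.06% of all genes. In 2 libraries a few of the lower genes had no UMI and their ratio is a bound against 3 UMIs.

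Spi1 was 319.6 (300.3 to 339.8), 265 (248 to 282), 440.3 (405 to 478), and 471 (427 to 518) CPM, 5.4- to 16.4-fold above Rag1-positive cells, and 75.6% to 90.3% of cells held a UMI after thinning. Lmo2 was 79, 80.5, 105, and 92.4 CPM, with intervals that overlapped between the highest and the lowest library. Id2 was 155, 131, 175, and 139 CPM, inside the range of stromal cells. Runx1, at 109.5 to 125 CPM, was only 1.74- to 2.09-fold below Rag1-positive cells.

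Tcf7, Myb, and Bcl11b were lower in C1qa-positive cells of the minoxidil and PGE2 libraries than in those of the carrier libraries. Tcf7 was 25.6, 19.6, 0.766, and 0 CPM, from 82, 72, 1, and 0 UMIs; a count of 0 allows up to 4.16 CPM in the PGE2 library. Myb was 30.6, 22.1, 3.83, and 2.25 CPM, and Bcl11b 19.7, 13.1, 1.53, and 5.63 CPM. Gata3 had another order, at 18.4, 5.73, 0, and 5.63 CPM, where the count of 0 allows up to 2.83 CPM. Epithelial cells without Ptprc held 22.6, 4.98, 3.58, and 4.19 CPM of Gata3, and mesenchymal cells 14.1, 1.88, 6.4, and 5.41 CPM. The part of this background in the Gata3 levels was not tested. After thinning, at most 4.72% of C1qa-positive cells outside the Tbx1+/+ library and 9.91% in it held a UMI of each of the first 3 genes. Against the Tbx1neo2/neo2 carrier library, Tcf7 and Myb were called lower with both drugs, and Bcl11b only with minoxidil. Bcl11a was also called lower with both drugs.

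Some C1qa-positive cells also carried a UMI of Klrd1, Rag1, Kit, or Adgrg1 (22, 11, 3, and 5 cells). In the carrier libraries most of the Tcf7 and Bcl11b UMIs sat in these cells, whereas with minoxidil none did. The cells with another marker held 79.7, 66.8, 0, and 0 CPM of Tcf7, and the remaining 91, 117, 28, and 23 cells held 2.67, 1.51, 0.865, and 0 CPM. Bcl11b was 52.4, 36.3, 0, and 14.2 CPM in the first and 5.78, 4.16, 1.73, and 1.65 CPM in the second. The T-lineage marker list summed to 129, 109, 9.96, and 28.2 CPM over all C1qa-positive cells, with Cd3e, Rag2, Ptcra, Lck, and Thy1 at 0 with minoxidil. The cells with another marker had medians of 38304, 98796, 36170, and 63117 UMIs and the remaining cells 19793, 19587, 38174, and 24086 UMIs; the part of depth in these values was not tested.

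Between libraries, 1 of 9 genes with enough UMIs was called in C1qa-positive cells of the carrier libraries (Gata3, 5.73 against 18.4 CPM; 10.8% of 11206 genes called), 6 of 9 between minoxidil and carrier (14.5% of 10564), and 4 of 9 between PGE2 and carrier (17.1% of 10359). Epithelial cells held 4.98 CPM of Gata3 in the Tbx1neo2/neo2 carrier and 22.6 CPM in the Tbx1+/+ library. Zbtb16 had too few UMIs. Spi1 was the only gene called higher, at 440.3 and 471 against 265 CPM. Cells with stromal UMIs held 44.6% of the UMIs of the Tbx1neo2/neo2 carrier C1qa-positive cells, and without them Spi1 was 399, 486, and 482 CPM and was called in neither drug comparison. Id2 was then higher with minoxidil (149 against 92.5 CPM), the only call left for these cells in the 2 drug comparisons (6.6% of 8453 and 8.04% of 8455 genes called), whereas between the carrier libraries 5 genes (Tcf7, Gata3, Id2, Bcl11a, and Myb) were then called lower with Tbx1neo2/neo2 in place of 1 (7.59% of 9567). With Epcam in place of Psmb11 among the stromal genes, none of the 10 was called in the 3 comparisons (4.81% of 8993, 7.08% of 8366, and 8.03% of 8368 genes called).

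For each of the 10 genes the 3 genes of most similar pattern over the 16 sums (4 subsets in 4 libraries) were found by the Pearson correlation of log2(CPM + 1) among 12786 genes. The points share libraries and are few, so the coefficients only describe. Bcl11b was followed by Lef1 (0.962), Aqp11 (0.955), and Gm15518 (0.947). Tcf7 was followed by Lrp8, Ifitm1, and Nrgn (0.985 to 0.987), Gata3 by Acap1, Emid1, and Abcb9 (0.981 to 0.990), and Myb by Tspan2, Pbx4, and Chdh (0.989 to 0.992).

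Spi1 was closest to Prcp, Skap2, and Ggh (0.983 to 0.984), and Lmo2 to Cd180, 1810011H11Rik, and Cyp20a1 (0.973 to 0.977). Id2 was closest to the innate lymphoid genes Cd200r4, Cxcr3, and AW112010 (0.960 to 0.967), and Zbtb16 to Padi2, Ikzf2, and Gimap5 (0.983 to 0.989). Bcl11a paired with Gnpnat1, Bri3bp, and Mycn (0.961 to 0.982), and Runx1 was closest to Tas1r1, Cacna2d4, and 2900079G21Rik (0.952 to 0.957).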

How the data were processed

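The data were single-cell RNA libraries of mouse fetal thymus, 1 per condition; lobes of hypoplastic thymuses were pooled. The authors aligned reads to mm10 and counted UMIs with Cell Ranger 5.0.1, and deposited unnormalized counts per gene and barcode; barcodes with under 200 genes (69 to 240 per library) and with over 20% mitochondrial UMIs (102 to 350) are still in them. Whether intronic reads were counted is not given in the sources used here. No doublet caller was run.

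Counts were read with Python 3.11.15 (numpy 2.4.6, scipy 1.17.1, pandas 2.3.3) and plotted with matplotlib 3.10.9. Cells under 200 genes or over 10% mitochondrial UMIs were dropped, and the others were assigned to subsets by marker UMIs. UMIs were summed per subset and library and divided by the total of the sum (CPM). Levels and ratios have exact 95% counting intervals, and shares of cells have Clopper-Pearson intervals after thinning to 5000 UMIs. A difference was called at 1.5-fold with intervals apart and at least 20 UMIs in both sums together; against a sum without UMIs the ratio was computed at 3 counts. With 1 library per condition no test and no p-value was possible; p-values and replicate errors are therefore absent. TMM factors (edgeR 4.0.16, R 4.3.3) and other cell rules were run as alternatives.

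All 10 genes were described in every subset and library, with the 3 genes most correlated with each over 16 sums (at least 200 UMIs in all) and, of 4 lists of other regulators, those called in all 4 libraries; regulators named for a single library comparison were chosen after their values were seen. The genes, subsets and lists were chosen with earlier results of these data known. Strata by Cd3g and by Klrd1, and the removal of cells with Psmb11, Pdgfra, Cdh5 or Pth UMIs, were added after seeing the data. The count of myeloid regulators between C1qa-positive and Rag1-positive cells is not reported here.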

Additional observations from a re-analysis of the deposited data

Results flagged for a closer look

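Some genes were called in opposite directions in different subsets under the same library comparison. In each case the difference between subsets was not tested, and both drug comparisons use the same Tbx1neo2/neo2 carrier library. Between minoxidil and carrier, Tcf7 had a log2 ratio of 1.03 in Klrd1-positive and -4.68 in C1qa-positive cells, Gata3 of 0.90 and -1.32 (a bound against 3 UMIs), and Myb of 1.26 and -2.53.

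Between PGE2 and carrier, Tcf7 had a log2 ratio of 0.68 in Kit/Adgrg1-positive, 1.04 in Klrd1-positive, and -2.54 (a bound) in C1qa-positive cells. Id2 was higher in Klrd1-positive cells (0.63) and lower in Rag1-positive cells (-0.97), and Myb was higher in Klrd1-positive cells (1.56) and lower in C1qa-positive cells (-3.29). Without cells holding at least 2 Psmb11, Pdgfra, or Cdh5 UMIs, which held 66.5% of the UMIs of the Klrd1-positive cells and 44.6% of those of the C1qa-positive cells in the carrier library, only Myb in Klrd1-positive cells was still called among these genes.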

How the results depend on the processing

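No paired analysis was possible because each condition is 1 library. Counting error is the only error available, the Klrd1-positive and C1qa-positive sums rest on as few as 42 and 28 cells, and variation between embryos cannot be told apart from the conditions. Of 3682 ratios compared over the settings that can move a ratio, 2553 stayed within their interval and 1083 moved beyond it, and the other 46 were called values that changed sign. A further 151 values that were not called also changed sign, 24 of them within their interval and 127 beyond it; the cause was not tested. The settings below changed counts of calls most: cells with the marker of only 1 subset, subset markers read after thinning, cells with at least 2 Epcam, Pdgfra, or Cdh5 UMIs left out, the same with Psmb11 in place of Epcam (added after seeing the data), means over cells, and a 2-fold threshold.

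The counts that follow have no share over all genes beside them and are not read as particular to the 10 genes. In Klrd1-positive cells of the carrier libraries, that share fell from 21.6% to 5.82% without Psmb11, Pdgfra, or Cdh5 cells. In C1qa-positive cells it fell from 10.8% to 4.81% without Epcam, Pdgfra, or Cdh5 cells. Between the carrier libraries, 11 calls became 5 with the marker of only 1 subset, 6 without Epcam, Pdgfra, or Cdh5 cells, and 5 at 2-fold. Between minoxidil and carrier, 13 calls became 0 with the marker of only 1 subset, 7 with thinned markers, 4 without Epcam, Pdgfra, or Cdh5 cells, 6 with means over cells, 8 at 2-fold, and 5 without Psmb11, Pdgfra, or Cdh5 cells. Between PGE2 and carrier, 16 calls became 10, 8, 4, 7, 8, and 3 in the same order. With the marker of only 1 subset, the minoxidil library kept 0 Rag1-positive and 9 Klrd1-positive cells. These were too few for any call to be made, so the fall to 0 was partly fixed in advance. The 3 genes called in all libraries between Rag1-positive and Kit/Adgrg1-positive cells became 1 where subsets may share cells; the first setting gave no value there, since 1 library kept no such Rag1-positive cell. Of 120 comparisons of detection shares, 7 differed at 5000 UMIs per cell, 3 at 10000, and 4 without thinning. For Bcl11b in Rag1-positive cells, TMM factors gave log2 ratios of -0.94 with minoxidil and 0.73 with PGE2. The PGE2 call was lost under 8 settings, with a lowest ratio of 0.10 without Epcam, Pdgfra, or Cdh5 cells. That rule left out 68.2% of the Rag1-positive cells with PGE2 and 44.3% in the Tbx1neo2/neo2 carrier library. With Psmb11 in place of Epcam the shares left out were 3.8% and 12.1%.

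The sign changes of called values lay almost all in Klrd1-positive and C1qa-positive cells. In Klrd1-positive cells of the carrier libraries, Gata3 became 0.24 with the marker of only 1 subset, 0.22 with thinned markers, 0.25 without Epcam cells, 0.18 with means, and 0.24 without Psmb11 cells. Zbtb16 became 0.56 with thinned markers, 0.20 without Epcam cells, 0.23 with means, and 0.21 without Psmb11 cells, and Lmo2 0.03 without Psmb11 cells. With minoxidil, Spi1 became -0.45 without Epcam cells and -0.20 without Psmb11 cells, and Myb -0.03 with at least 2 marker UMIs and -0.29 with at least 3 Klrd1 UMIs.

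With PGE2, the marker of only 1 subset gave -0.67 for Tcf7, -0.54 for Gata3, and -0.59 for Spi1. Leaving out Epcam cells gave -0.10 for Tcf7, -0.26 for Gata3, -0.41 for Spi1, and -0.15 for Id2. Leaving out Psmb11 cells gave -0.05 for Gata3, -0.45 for Spi1, and -0.09 for Id2. Thinned markers gave -0.79 for Spi1, -0.14 for Id2, and -0.12 for Zbtb16, and Spi1 was -0.18 with means and -0.29 with at least 3 Klrd1 UMIs.

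In C1qa-positive cells taken at 1 C1qa UMI, minoxidil gave 1.32 for Tcf7, 1.65 for Gata3, 0.41 for Bcl11b, and 1.28 for Myb, and PGE2 gave 1.78 for Tcf7 and 1.94 for Myb; Gata3 with minoxidil was 0.17 with means. Between Rag1-positive and Kit/Adgrg1-positive cells with the marker of only 1 subset, Tcf7 was -0.01 and Lmo2 0.09 in the Tbx1+/+ library, and Lmo2 0.39 with PGE2. Between Klrd1-positive and Rag1-positive cells of the Tbx1neo2/neo2 carrier library, Gata3 was 0.06 with the marker of only 1 subset, 0.07 with thinned markers, 0.00 without Epcam cells, and 0.06 without Psmb11 cells, and Spi1 was -0.36 at most 5% mitochondrial UMIs. Between C1qa-positive and Rag1-positive cells of the Tbx1+/+ library, Runx1 was 0.17 and Id2 -0.08 with the marker of only 1 subset.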

Other observations

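C1qa-positive cells also differed from Rag1-positive cells in the other listed regulators. Against Rag1-positive cells of the same library, 9 of 12 T-lineage regulators were called lower in all 4 libraries and none higher, next to 9.06% of all genes lower and 13.2% higher. Maf, which is active in resident macrophages, stood at 534, 683, 611, and 802 CPM in C1qa-positive cells, in the order Tbx1+/+ carrier, Tbx1neo2/neo2 carrier, minoxidil, and PGE2. Mef2c was higher in C1qa-positive cells at 286, 355, 357, and 386 CPM, although it had been listed as a progenitor factor; Erg and Mycn were called lower, so 3 of 10 progenitor regulators were called one way. Among 10 innate lymphoid regulators, Id3 and Prdm1 were called higher and Ikzf2 lower, next to 22.3% of all genes called one way.

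Detection of several of the 10 genes in the same cell was counted at a depth of 5000 UMIs. Thinning lowers detection, so these counts do not measure how many of the genes a cell expressed. After thinning to 5000 UMIs, the median cell held a UMI of 3 of them in Kit/Adgrg1-positive and Klrd1-positive cells, of 3, 4, 4, and 4 in Rag1-positive cells, and of 2 in C1qa-positive cells. Zbtb16 and Gata3, which are found together in innate lymphoid precursors, were detected in the same cell in 8.04%, 9.68%, 9.52%, and 11.6% of Klrd1-positive cells. The shares were 5.69%, 3.54%, 6.52%, and 3.3% in Rag1-positive and 4.44%, 3.46%, 5.38%, and 8.09% in Kit/Adgrg1-positive cells. The Klrd1-positive shares rest on 224, 62, 42, and 69 cells, and differences between subsets were not tested.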
